A study of Mus musculus with 2 samples.

Results

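Jun, Junb, Jund, Fos, Fosb, Fosl1, Fosl2, Atf3, Egr1 and Myc are early response genes, and their RNA was measured separately for the 2 alleles in hybrid mouse fibroblasts. The genes were chosen by name, with earlier results of these data known, and all 10 were found among the 22711 genes of both tables. The cells were immortal mouse embryonic fibroblasts grown in medium with serum, and the labels name no stimulus. Both lines were hybrids of C57BL/6N (B6) and PWK/PhJ (PWK), with 1 library each. In the line B6-Xi, of strain PWK/PhJ X C57BL/6N, the inactive X chromosome is named for B6. In the line PWK-Xi, of strain C57BL/6N X PWK/PhJ, it is named for PWK. None of the 10 genes lies on the X chromosome. How the lines were made immortal, and whether each is a single clone, is not given in the labels.

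Early response genes are switched on within minutes of serum, growth factors or stress, without new protein synthesis, and their mRNAs are short-lived. Jun and Fos proteins carry a leucine zipper and pair to form AP-1, which binds the AP-1 site; Jun proteins also pair with each other, while Fos proteins need a partner. Atf3 is a stress-induced zipper protein of the ATF branch, Egr1 a zinc finger factor induced through serum response elements, and Myc a factor that pairs with Max on E-boxes and drives growth genes. In fibroblasts, serum induction of Fos, Egr1 and Myc is the classical example of this response.

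RefSeq promoter windows (build GRCm38.p6) were held for 7 of the 10 genes: Jun, Junb, Jund, Fos, Fosb, Fosl2 and Atf3. Shown are the 150 bases before the annotated start of the 4 among them that reached 5 FPKM in a line, as a place to look for short promoter elements. FPKM is a level per transcript length and library size. How reads were assigned to alleles is not stated, so levels of different genes can be compared only with that reserve. The windows lie at chr4:95052223-95052372 (Jun, minus strand), chr8:84978749-84978898 (Junb, minus strand), chr12:85473740-85473889 (Fos, plus strand) and chr5:32136322-32136471 (Fosl2, plus strand), are printed 5′ to 3′ on the gene's strand, and show the reference strain. Capitals mark matches to the motifs named next, on either strand and joined where they overlap.
Jun: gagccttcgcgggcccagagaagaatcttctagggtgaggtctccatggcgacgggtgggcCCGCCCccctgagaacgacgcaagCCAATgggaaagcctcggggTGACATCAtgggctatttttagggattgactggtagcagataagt
Junb: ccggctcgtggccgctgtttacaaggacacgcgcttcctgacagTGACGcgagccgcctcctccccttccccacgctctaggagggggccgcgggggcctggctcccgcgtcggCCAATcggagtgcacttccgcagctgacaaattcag
Fos: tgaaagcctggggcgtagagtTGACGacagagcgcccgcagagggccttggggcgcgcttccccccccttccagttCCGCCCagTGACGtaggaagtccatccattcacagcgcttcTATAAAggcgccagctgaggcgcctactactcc
Fosl2: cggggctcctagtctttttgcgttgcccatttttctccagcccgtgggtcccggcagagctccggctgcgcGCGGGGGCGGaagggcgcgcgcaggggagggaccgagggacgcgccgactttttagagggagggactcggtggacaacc

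Both strands of the 250 bases before the start were searched for 9 motifs in each window. Serum response elements were not among these motifs. The Jun window held TGACATCA, the AP-1-like element of that promoter, at positions -45 to -38 (bases before the start count as negative), which 2.93% of all 32851 promoter windows in the table held. The CRE core TGACG was in 4 of the 7 windows (Junb, Fos, Fosb and Atf3) and in 17.8% of all. In Fos it began at -129 and again at -66, and the TATA box TATAAA (12.4% of all) at -33. The GC box GGGCGG was in 5 of the 7 (Jun, Fos, Fosb, Fosl2 and Atf3) and in 32.7% of all, and CCAAT was in Jun and Junb and in 33.8% of all. Fosl2 and Fosb held the Egr site GCGGGGGCG (2.57% of all), which overlaps a GC box there. The full CRE TGACGTCA (1.55% of all), which contains the core, the AP-1 site TGACTCA (4.46%) and the E-box CACGTG (6.02%) were in none of the 7.

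Depth behind the values is unknown. Genes above 0 numbered 10127 in B6-Xi against 12907 in PWK-Xi. The B6 share is the B6 FPKM as a percentage of the FPKM of both alleles. From 1 FPKM up, it was a fraction with a denominator of 10 or less (within 0.001 points) for 47.1% of genes in B6-Xi but for 12.8% in PWK-Xi, so shares are coarser in B6-Xi. Vim, B2m and Ppia, used by fibroblasts or by all cells, are listed at 0 in both files, and a 0 is therefore not read as absence. Of 13 fibroblast markers 11 reached 5 FPKM, of which 4 were higher and 3 were lower in PWK-Xi by 2-fold or more: S100a4 had 13006 and 2321 FPKM, Sparc 580 and 252, and Dcn 79.1 and 456. The 8 epithelial, 6 endothelial and 7 immune markers each stayed at or under 3.25 FPKM, and of 6 neural markers Tubb3 alone passed 5 FPKM (5.32 in PWK-Xi). Of 6 pluripotency markers all were listed at 0 in B6-Xi and 5 were above 0 in PWK-Xi, where their summed FPKM was 153. Dppa5a had 135 FPKM of this, 99.8% from B6, and Pou5f1 had 15.1 FPKM, 100% from B6.

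Levels of the 10 genes were low to moderate in both lines. Of them 7 were above 0 in B6-Xi and 9 in PWK-Xi, and the same 7 (Jun, Junb, Fos, Fosl1, Fosl2, Egr1 and Myc) were above 0 in both and reached 5 FPKM in at least 1. Egr1 was the highest in each line, and the 10 genes summed to 56.3 FPKM in B6-Xi against 102 FPKM in PWK-Xi. In B6-Xi the order after Egr1 was Junb, Fosl2, Jun, Myc, Fosl1 and Fos. In PWK-Xi it was Fos, Fosl1, Fosl2, Myc, Junb, Jun, Jund and Fosb. With 1 library per line no spread is known, so which neighbours in these orders differ could not be judged. The orders, and the ratios between families given next, also assume that the allelic FPKM of different genes are comparable, which Vim, B2m and Ppia at 0 leave in doubt.

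**Figure D1:**
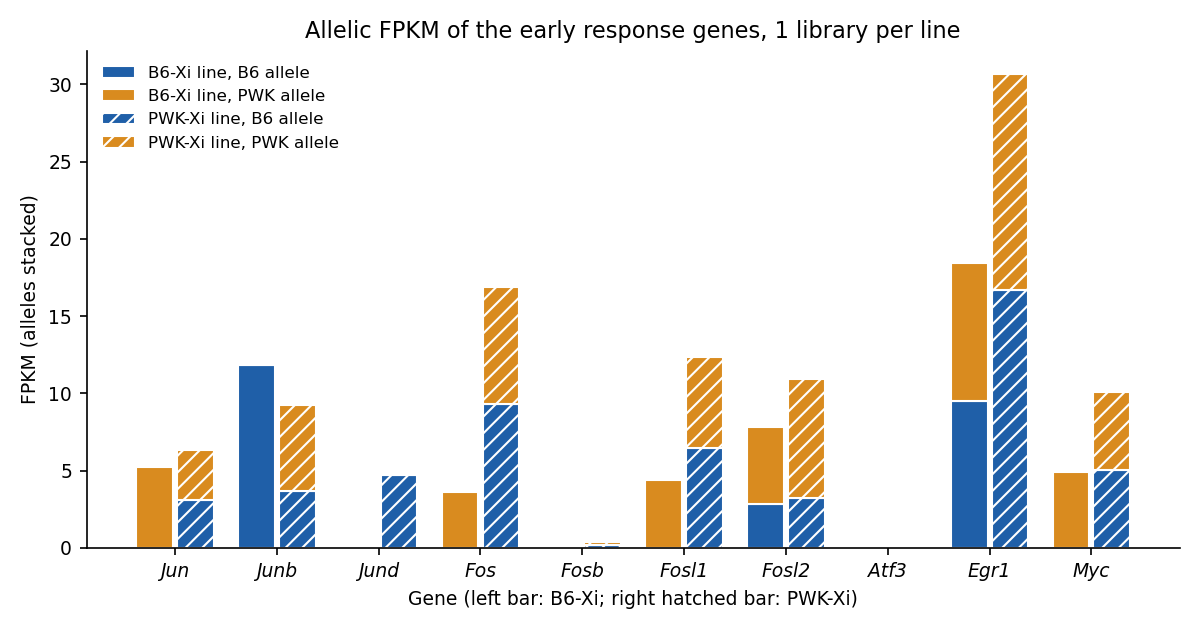
Bars give the FPKM of each gene (y axis) in B6-Xi (left, plain) and PWK-Xi (right, hatched), with the B6 allele in blue below the PWK allele in orange; there is 1 library per line and no error bar. Egr1 is the tallest in both lines (18.5 and 30.6 FPKM), and 5 genes have a bar of 1 colour in B6-Xi.

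Among the Jun family, Jun, the main activating partner in AP-1, had 0 FPKM from B6 and 5.22 FPKM from PWK in B6-Xi. In PWK-Xi it had 3.09 FPKM from B6 and 3.26 FPKM from PWK. Its totals were thus close, at 5.22 and 6.35 FPKM, while the allele that carried them differed: both alleles were read in PWK-Xi and the PWK allele alone in B6-Xi, at a level above that of the same allele in PWK-Xi. Junb, a Jun protein known to be a weaker activator that can oppose Jun, showed the reverse pattern in B6-Xi, with 11.9 FPKM from B6 and 0 FPKM from PWK. In PWK-Xi it had 3.71 FPKM from B6 and 5.56 FPKM from PWK. Junb overlaps the far more abundant Prdx2 on the opposite strand in the annotation of a later build (462 and 368 FPKM). Since the labels do not say that strand was kept, reads of both genes cannot be told apart and the Junb values are uncertain. Jund, the member usually least dependent on stimulation, was listed at 0 in B6-Xi; in PWK-Xi it had 4.68 FPKM, all from B6. A 0 in B6-Xi was found for 10.3% of the genes that had 1 to 10 FPKM in the other line. Pou5f1 and Dppa5a had the pattern of Jund, a 0 in B6-Xi and B6 reads in PWK-Xi, and whether both come from the same source was not tested.

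Fos family genes had higher totals in PWK-Xi than in B6-Xi, also with both libraries at the same median for the 3 of them that reached 5 FPKM. Fos, the prototype early response gene, had 0 FPKM from B6 and 3.62 FPKM from PWK in B6-Xi. In PWK-Xi it had 9.32 FPKM from B6 and 7.58 FPKM from PWK. Both alleles were therefore higher in PWK-Xi, and the total went from 3.62 to 16.9 FPKM, 4.67-fold, the widest ratio among the 7 genes above 0 in both lines. Fosl1 encodes Fra-1, a later and more lasting Fos protein found in proliferating and migrating cells. It had 0 FPKM from B6 and 4.41 FPKM from PWK in B6-Xi, and 6.47 and 5.85 FPKM in PWK-Xi. Its total was 2.80-fold higher in PWK-Xi, while its PWK allele alone was 1.33-fold higher. Fosl1 overlaps Ccdc85b on the opposite strand (7.90 and 8.94 FPKM), which makes its values uncertain in the same way. Fosl2, which encodes Fra-2, was read from both alleles in each line: 2.84 FPKM from B6 and 4.96 FPKM from PWK in B6-Xi, and 3.22 and 7.71 FPKM in PWK-Xi. The PWK allele was the higher one of Fosl2 in both lines. Fosb, a Fos protein with a strong activation domain, was listed at 0 in B6-Xi, and its 0.364 FPKM in PWK-Xi were 50% from B6.

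Summed over the family, Jun genes had 17.1 and 20.3 FPKM in the order B6-Xi, PWK-Xi, and Fos genes had 15.8 and 40.5 FPKM. Fos family FPKM were 0.927 times those of the Jun family in B6-Xi and 2.00 times in PWK-Xi. This within-library ratio does not depend on how the libraries are scaled against each other. Fosl2 made up 49.3% of the Fos family sum in B6-Xi, and Fos, at 41.7%, was its largest part in PWK-Xi. In the Jun family, Junb was the largest part in both lines, with 69.5% and 45.7%. After both libraries were brought to the same median, the Fos family ratio of PWK-Xi over B6-Xi was 2.12 in place of 2.56, and that of the Jun family turned from 1.19 to 0.986. On the PWK allele alone the ratios were 1.69 for Jun genes and 1.64 for Fos genes. The higher PWK sum of the Jun genes came from the uncertain Junb alone (0 and 5.56 FPKM), since Jun was lower on that allele in PWK-Xi (a ratio of 0.625) and Jund had 0 in both lines. On the B6 allele the ratios were 0.968 for Jun genes and 6.77 for Fos genes. The 6.77 rests on a B6 sum of 2.84 FPKM in B6-Xi, all from Fosl2, as Fos, Fosl1 and Fosb had 0 FPKM from B6 there. The B6 sum of the Jun genes in B6-Xi came from Junb alone.

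Outside AP-1, Egr1 was read almost evenly from both alleles. It had 9.49 FPKM from B6 and 8.98 FPKM from PWK in B6-Xi, and 16.7 and 14.0 FPKM in PWK-Xi. Each allele was higher in PWK-Xi, by 1.76-fold for B6 and 1.56-fold for PWK, and the total stood at the 83.6th percentile of genes above 0 in B6-Xi and the 90.6th in PWK-Xi. Myc had 0 FPKM from B6 and 4.93 FPKM from PWK in B6-Xi. In PWK-Xi it had 5.04 FPKM from B6 and 5.04 FPKM from PWK. The PWK allele of Myc was thus at nearly the same level in both lines (a ratio of 1.02), and nearly the whole difference of its total, 4.93 against 10.1 FPKM, was on the B6 allele. Atf3 was listed at 0 for both alleles in both lines.

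**Figure D2:**
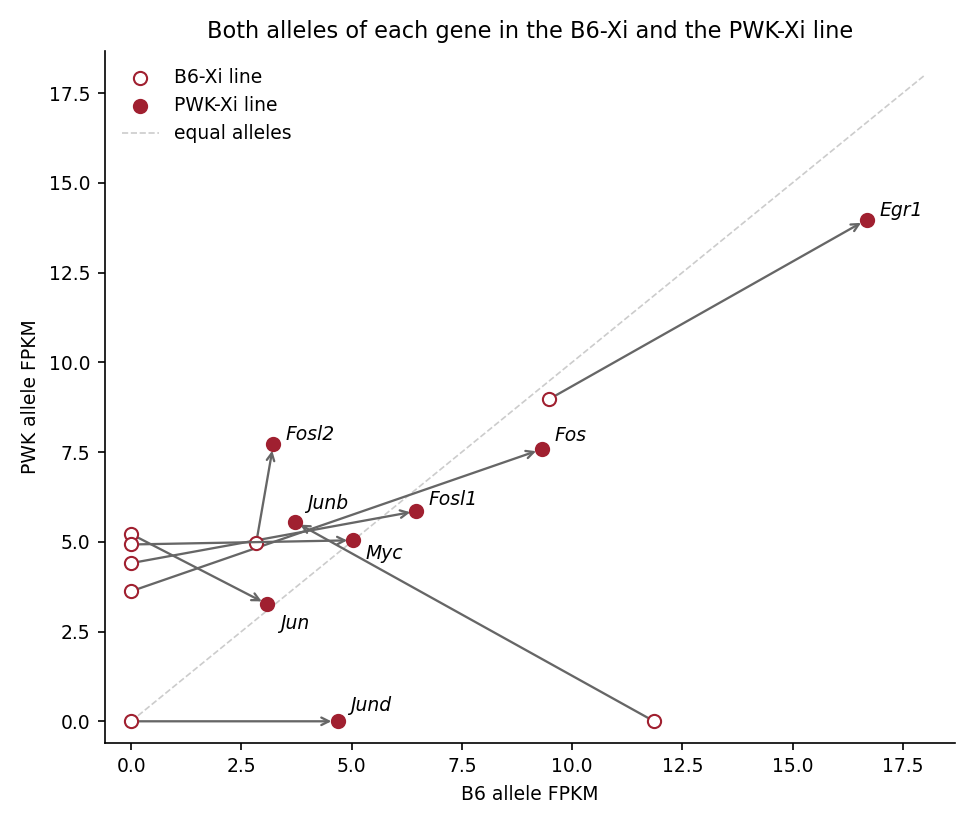
Each arrow leads from a gene's allelic FPKM in B6-Xi (open circle) to those in PWK-Xi (filled circle), with the B6 allele on the x axis and the PWK allele on the y axis, for the 8 genes that reached 1 FPKM in a line. Jun, Fos, Fosl1 and Myc start on the y axis, with 0 FPKM from B6, and end near the dashed line of equal alleles; Junb starts on the x axis.

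In B6-Xi, then, 5 of the 7 genes with at least 1 FPKM came from 1 allele, by a B6 share of at most 10% or at least 90%. Jun, Fos, Fosl1 and Myc had 0% and Junb had 100%, Fosl2 had 36.4% and Egr1 had 51.4%. In PWK-Xi 1 of 8 did, Jund at 100%, and the other 7 lay between 29.5% (Fosl2) and 55.1% (Fos). By the same rule, 14.5% of all autosomal genes from 1 FPKM up came from 1 allele in B6-Xi, against 4.90% in PWK-Xi. In the range from 3 to 20 FPKM, which holds all 5 of these genes, the share of such genes was 11.6% in B6-Xi against 3.66% in PWK-Xi. Without chromosomes 4 and 12 it was 8.37% in B6-Xi, where 3 of the remaining 5 early response genes (Junb, Fosl1 and Myc) came from 1 allele. Without the overlapped Junb and Fosl1 it was also 3 of 5 (Jun, Fos and Myc), and at 5 FPKM or more it was 2 of 4 (Jun and Junb) in B6-Xi and 0 of 7 in PWK-Xi. With 1 library per line these counts describe the 2 libraries.

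The shares were next set beside those of the genes around each early response gene. For each, the 5 nearest genes on either side with at least 1 FPKM in both lines were read, in the gene order of a later build. Fos lies on chromosome 12, and all 10 of its neighbours, from Dlst to Gstz1, had a B6 share of 0% in B6-Xi, as Fos did. In PWK-Xi those neighbours had a median of 49.4% and Fos 55.1%. Of the 10 Fos neighbours 9 also had higher totals in PWK-Xi, all but Dlst (14.7 and 14.4 FPKM), with a median log2 difference of 0.90 against 1.95 for Fos. Jun, on chromosome 4, had unlike neighbours on its sides: the 5 genes on one side (Tusc1, Plaa, Gm12657, Ift74 and Mysm1) had 0% in B6-Xi. On the other side Cyp2j6 had 38.1%, Tm2d1 54.3%, Usp1 43.8% and Alg6 100%. In PWK-Xi the 10 Jun neighbours had a median of 56.9%.

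Fosl1, Myc and Junb differed from their surroundings in B6-Xi. Fosl1, on chromosome 19, had 0% among neighbours with a median of 48.0% and a range of 33.3% to 63.6%, so that it lay below all 10. Myc, on chromosome 15, had 0% against a neighbour median of 47.1%. Pvt1, the non-coding gene next to Myc, had 44.2% of 6.14 FPKM, and only Fam49b among the 10 also had 0%. Junb, on chromosome 8, had 100% against a neighbour median of 52.5% and a highest neighbour at 71.9%. Its overlapping neighbour Prdx2 had 51.2%. In PWK-Xi these 3 genes lay 6.37, 3.09 and 13.0 percentage points from their neighbour medians.

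Egr1 lay near its neighbour median in both lines, and Fosl2 below its own in both. Fosl2, on chromosome 5, had 29.5% in PWK-Xi, where its neighbours had a median of 37.7% and the chromosome of 36.5%. Its 36.4% in B6-Xi stood 15.4 points under a neighbour median of 51.8%, and 9 of its 10 neighbours had a higher share. Egr1 lay 3.05 points from its neighbour median in B6-Xi and 0.694 points in PWK-Xi. Jund, at 100% in PWK-Xi, had neighbours with a median of 48.3%, of which Pgpep1 also had 100%.

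**Figure D3:**
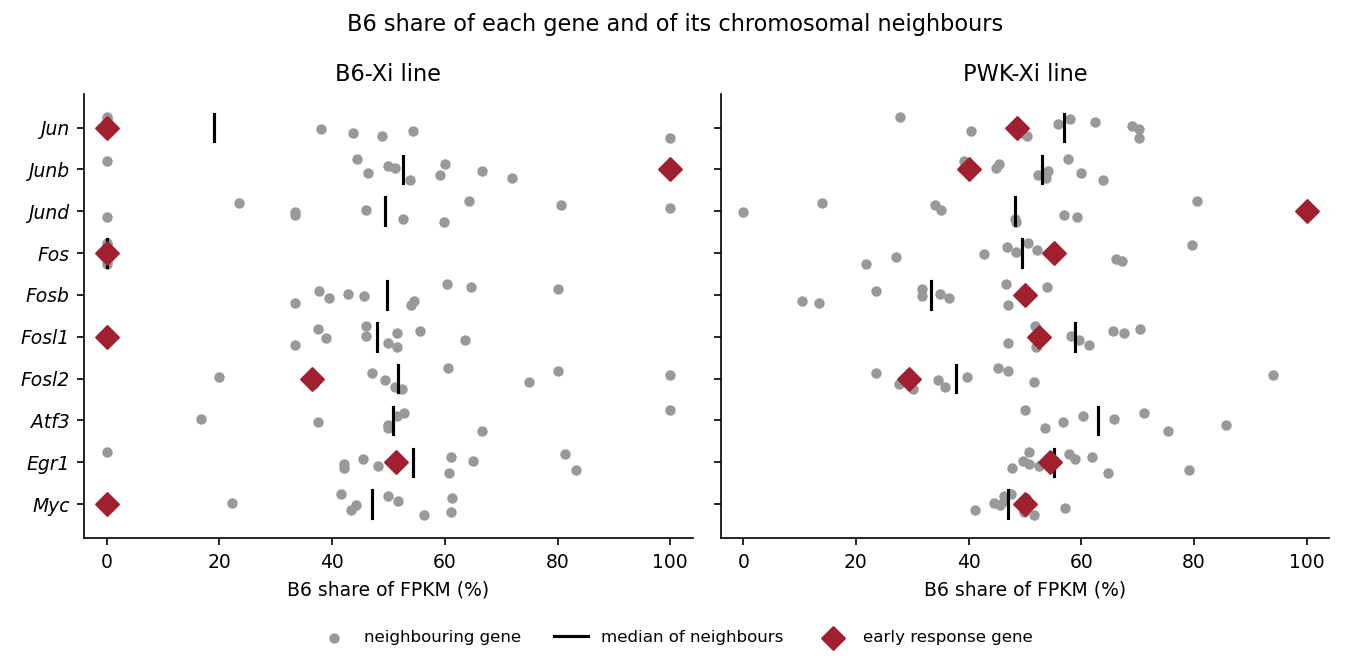
Diamonds give the B6 share (x axis, percent) of each early response gene in B6-Xi (left) and PWK-Xi (right), grey points those of its nearest measured neighbours, and black bars the neighbours' median; a gene with no diamond was listed at 0. In B6-Xi the diamonds of Fosl1 and Myc lie at 0% with neighbour medians of 48.0% and 47.1%, while Fos and its 10 neighbours are all at 0%.

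Total FPKM was higher in PWK-Xi for most early response genes, as it was for most genes with the same minimum. On the scale log2((PWK-Xi FPKM + 1)/(B6-Xi FPKM + 1)), which understates the difference of low genes, 6 of the 7 genes that reached 5 FPKM in a line were higher in PWK-Xi. This also held with both libraries at the same median, where Jun was at 0.01 and Fosl2 at 0.20. Without that scaling, 62.1% of all genes with the same minimum were higher in PWK-Xi. At least 2-fold higher were 2 of the 7, Fos at 1.95 and Fosl1 at 1.30, and 0 were at least 2-fold lower. Over all 5490 genes that met the same minimum, 17.8% were higher and 5.83% were lower by 2-fold or more, and over the 5241 of them above 0 in both lines these shares were 14.1% and 5.95%. With both libraries at the same median they were 12.7% and 9.95%. The median log2 difference was 0.70 for the 7 genes, 0.23 for all 5490 genes and 0.19 for those above 0 in both lines. Relative to the last value Fos was at 1.76, Fosl1 at 1.11, Myc at 0.71, Egr1 at 0.51, Fosl2 at 0.25, Jun at 0.05 and Junb at -0.52. With 1 library per line these differences have no replicate check and no test. Without the overlapped genes Junb and Fosl1, or without Jun and Fos of chromosomes 4 and 12, 1 of 5 genes was at least 2-fold higher (Fos and Fosl1, in that order).

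By allele, the sums differed more on B6 than on PWK. The B6 allele of the 10 genes summed to 24.2 FPKM in B6-Xi against 52.4 FPKM in PWK-Xi, a ratio of 2.17, and the PWK allele to 32.1 and 49.2 FPKM, a ratio of 1.53. With the libraries at the same median the PWK ratio was 1.27. On the log2 scale with 1 FPKM added, the PWK allele of Fos differed by 0.89, of Egr1 by 0.59, of Fosl2 by 0.55, of Fosl1 by 0.34, of Myc by 0.03 and of Jun by -0.54. On this scale none of these 6 reached 2-fold on the PWK allele, though Fos had a ratio of 2.09 there without the added FPKM. The seventh, Junb, differed on the log2 scale by 2.71 on the PWK allele, from 0 to 5.56 FPKM, and by -1.45 on the B6 allele. The pluripotency transcripts, nearly all of B6 origin, were also higher in PWK-Xi, and their part in the result was not tested. Fewer cells with a transcript and less transcript per cell cannot be told apart in such bulk libraries.

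**Figure D4:**
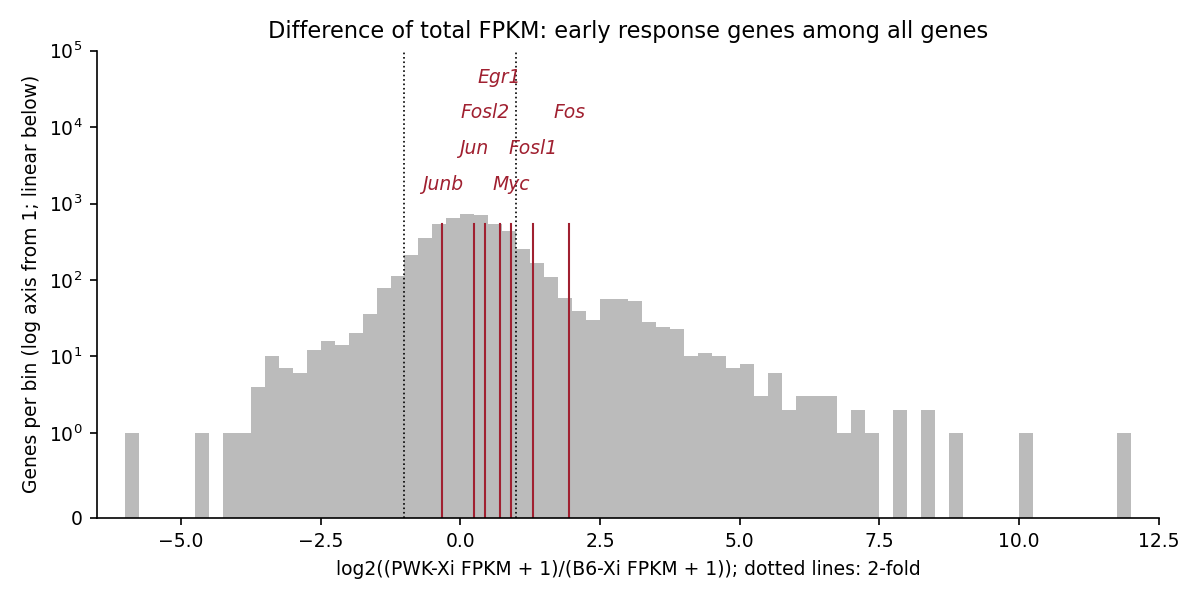
Grey bars count genes (y axis, log scale above 1) by the log2 difference of total FPKM between PWK-Xi and B6-Xi (x axis, with 1 FPKM added), for the 5490 genes that reached 5 FPKM in a line; red lines mark the 7 early response genes. Fos and Fosl1 lie beyond the dotted line of 2-fold, and the other 5 lie within 2-fold.

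The pathway around these genes was read from lists of their relatives, regulators and targets. Of 46 other immediate early genes 32 reached 5 FPKM, of which 10 were higher and 3 were lower in PWK-Xi by 2-fold or more, with a median log2 difference of 0.31. Of these 32, 29 were above 0 in both lines, with 7 higher, 3 lower and a median of 0.04. Ccl2, a chemokine gene, was by far the most abundant, at 2097 FPKM in B6-Xi against 1724 FPKM in PWK-Xi. Cyr61, a secreted matrix-associated protein, had 36.5 and 79.8 FPKM, and Thbs1, a matrix glycoprotein, had 126 and 51.8 FPKM. Nfkbia, the inhibitor of NF-kappaB, and Ifrd1 lie on chromosome 12 like Fos and had B6 shares of 0.794% and 0% in B6-Xi against 53.6% and 43.2% in PWK-Xi. Cxcl1, Zfp36l1 and Klf2 were listed at 0 in B6-Xi, while PWK-Xi had 35.0, 25.4 and 7.28 FPKM of them.

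Relatives of the 10 genes were mostly low. Of 17 other AP-1 type zipper genes 3 reached 5 FPKM: Atf4, the effector of the integrated stress response, had 51.3 and 49.3 FPKM, Maf had 22.3 and 13.4 FPKM, and Atf2, a partner of Jun, had 2.94 and 10.0 FPKM, which was at least 2-fold higher in PWK-Xi. Atf4 was thus more abundant in each line than any of the 10 genes. Of 6 Egr relatives and Nab corepressors 1 reached 5 FPKM, Nab1, a corepressor of Egr1, at 7.25 and 14.9 FPKM (0.95 on the log2 scale with 1 FPKM added, just short of 2-fold). In the Myc network 6 of 12 genes did, with 2 higher and 1 lower. Mxd4, an antagonist that competes for Max, had 8.90 and 2.52 FPKM, Mlxip had 2.57 and 6.20 FPKM, and Mga was listed at 0 in B6-Xi against 6.61 FPKM in PWK-Xi.

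Upstream, 13 of 23 genes of serum and MAP kinase signalling reached 5 FPKM, 2 were higher by 2-fold or more and 0 were lower by as much. The kinase genes Map2k4 (22.9 and 22.3 FPKM) and Map2k1 (9.16 and 16.7 FPKM) stayed within 2-fold. Rps6ka1, a ribosomal S6 kinase gene, had 0.417 and 5.66 FPKM, which was higher by more than 2-fold.

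Downstream, 15 of 20 known AP-1 target genes reached 5 FPKM, with 6 higher and 2 lower by 2-fold or more and a median log2 difference of 0.20. Above 0 in both lines were 14 of them, with 5 higher and 2 lower. The shares over all genes, 17.8% higher and 5.83% lower, are the background for these and the other lists' counts. The matrix metalloproteinase Mmp3 had 13.9 and 233 FPKM, a ratio of 16.8, and the collagenase Mmp13 had 0.697 and 19.0 FPKM. Mmp10 was listed at 0 in B6-Xi against 5.58 FPKM in PWK-Xi. Mmp9, of the same family, was lower in PWK-Xi, with 6.57 and 0.470 FPKM. Spp1, osteopontin, had 119 and 614 FPKM. Like Mmp9, Ccnd1, cyclin D1, was lower in PWK-Xi, with 198 FPKM in B6-Xi against 12.4 FPKM in PWK-Xi. Of 28 Myc targets 26 reached 5 FPKM, 1 was at least 2-fold higher (Tfrc, the transferrin receptor, 5.03 and 18.3 FPKM), 1 was at least 2-fold lower (Ccnd2, cyclin D2, 20.1 and 1.72 FPKM), and the median was -0.06. All 26 were above 0 in both lines. Nme2 (1060 and 706 FPKM) and the nucleolar protein gene Npm1 (659 and 536 FPKM) were the most abundant of them. Both have close paralogs or copies, so their values are uncertain.

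**Figure D5:**
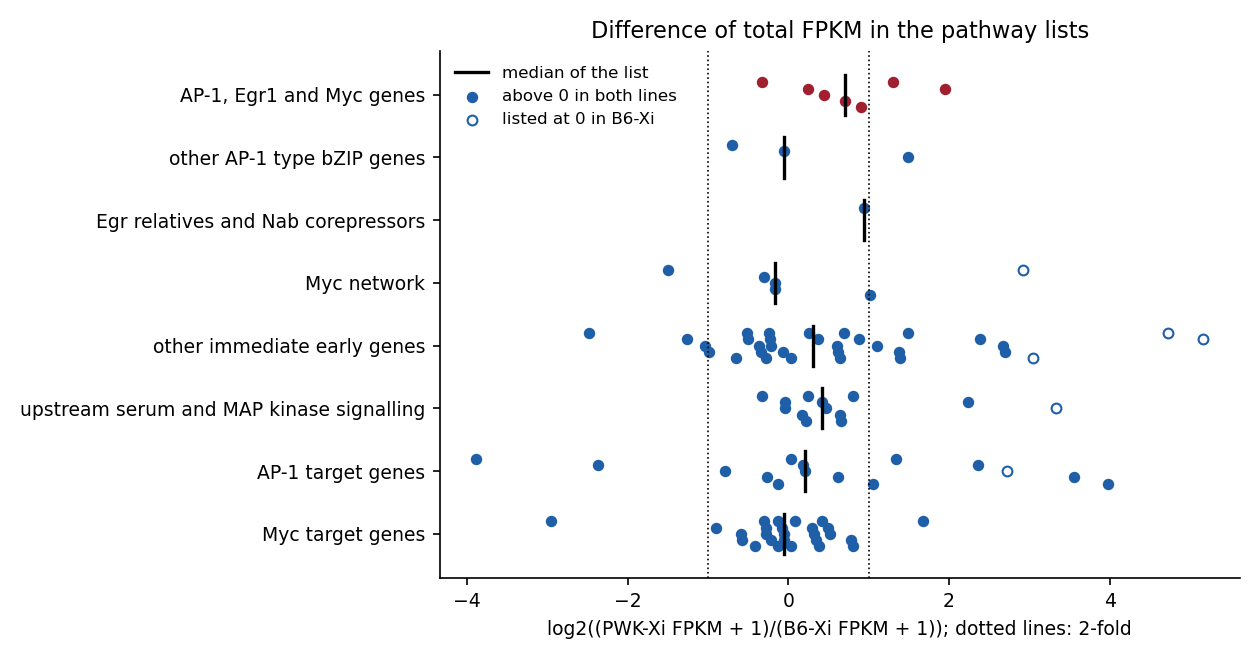
Each point is a gene that reached 5 FPKM in a line, placed by the log2 difference of total FPKM between PWK-Xi and B6-Xi (x axis, with 1 FPKM added) in the row of its list; black bars are list medians and open points are genes listed at 0 in B6-Xi. The early response genes (red) have a median of 0.70, the 32 other immediate early genes 0.31 and the 26 Myc targets -0.06.

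Genes with the most similar allelic pattern were ranked by Euclidean distance over 4 values, log2(FPKM + 1) of each allele in each line. Nearest to Egr1 were Ppdpf, Spc25 and Zfand6 (distances of 0.11 to 0.20). Nearest to Jun was Mthfd1 (0.07), to Fosl1 Hbp1 (0.16), to Myc Acyp1 (0.19), to Fosl2 Pak2 (0.15) and to Fos Eapp (0.28). For the 4 genes with a B6 share of 0% in B6-Xi, 10 of their 12 nearest genes lie on chromosome 12, and the others, Inip for Myc and Sepp1 for Fos, on chromosomes 4 and 15. Chromosome 12 holds 28.3% of the 540 ranked genes with a B6 share of 0% in B6-Xi. Of the 4 early response genes only Fos lies on chromosome 12. Nearest genes were picked on the same allelic values, so they share the 0% in B6-Xi by selection. The 540 genes were not matched for level or for their share in PWK-Xi, so 28.3% is not a like background. Genes of chromosome 12 had median B6 shares of 0% in B6-Xi and 52.5% in PWK-Xi. Nearest to Junb was Pcdhga4, at a larger distance of 0.50.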

How the data were processed

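Polyadenylated RNA of the 2 lines was captured with oligo-dT and made into Smart-seq2 libraries, per the labels' protocols. The authors deposited FPKM values per gene with 1 column for each allele, per the file headers; build mm9 and the tools StringTie 2.1.1, Trim Galore 0.6.4 and HISAT2 2.2.0 are credited to the submitters' processing notes. The sources used here do not say how reads were assigned to an allele, and the read depth is unknown, so no counting interval is given.

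Groups came from the titles. Total FPKM is the sum of both alleles, and the B6 share used no pseudocount. Differences used a pseudocount of 1 FPKM and a minimum of 5 FPKM in 1 of the lines. Gene order came from GENCODE names (21631 genes), RefSeq symbols (196) and synonyms (802) of a later build, with 82 unmatched; only promoter windows carry coordinates, of that build. The 10 genes and all lists were chosen with earlier results of these data known. Eligible to be named were all 10 genes, in each list the 5 most abundant and the 3 with the largest absolute difference, and the 3 genes nearest in pattern to each of the 10. Neighbours, markers and overlapping genes were named by position or list. Mmp9 and Mmp10 were named to complete the metalloproteinases of their list that reached 5 FPKM. The background from 3 to 20 FPKM and the sets without chromosomes 4 and 12 or without overlapped genes were chosen after seeing the data. Scripts were tested on simulated data. The software was pandas 2.3.3 with numpy 2.4.6 under Python 3.11.15, and matplotlib 3.10.9. Alternatives covered the pseudocount, the minimum FPKM, library scaling, genes at 0, share limits and the choice of neighbours. Values of some neighbouring and pathway genes are not reported here.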

Additional observations from a re-analysis of the deposited data

How the results depend on the processing

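Of 77 recomputed values, 55 stayed close to the reported one (counts within 1.5 times, log2 differences within 1.5-fold and on the same side of 2-fold) and 0 called differences changed sign. The number of early response genes at least 2-fold higher in PWK-Xi was 2, and became 1 (Fos) with a pseudocount of 5 FPKM, 0 with a minimum of 20 FPKM, which only Egr1 met, and 1 without the genes of chromosomes 4 and 12 or without the overlapped genes. The number of genes of 1 allele in B6-Xi was 5, and became 2 at a minimum of 5 FPKM, and 3 without chromosomes 4 and 12 or without the overlapped genes; in PWK-Xi it was 1 and became 0 at 5 FPKM. The median distance between a gene's B6 share and that of its neighbours was 19.0 points in B6-Xi and 48.1 points with the neighbours' FPKM summed. In PWK-Xi it was 6.37 points, 3.27 with neighbours of at least 5 FPKM and 2.52 with summed FPKM. The cause was not tested beyond the smaller sets these settings leave. Of 28 alternatives for single genes, 11 moved, 10 of them on taking 1 allele alone, where Jun (PWK allele, -0.54) and Junb (PWK allele, 2.71) turned direction; the other put Myc at 1.02 with a pseudocount of 0.1 FPKM, just past 2-fold. Unknown depth, coarse shares and 1 library per line limit every value. No paired analysis was possible, because there was 1 library per line and the labels define no pairs.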
